A study of Saccharomyces cerevisiae with 15 samples.

Results

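The meiosis and sporulation genes of budding yeast were followed across 5 conditions in RNA-seq data of Saccharomyces cerevisiae strain L40. Members were all genes whose standard name is SPO, SPS, SPR, DIT, REC, ZIP, HOP, MEI or IME with a number, together with NDT80 and SMK1, and they were matched by open reading frame (ORF) identifier. This gave 48 genes of the 6692 in the deposited data. The set was singled out with a strong increase of SPO19 in Curcumin-treated cells already known, so that all values and calls in Curcumin are given as a description, with no p-value, and nothing is read from them. By assigned role the set holds 6 regulators and kinases, 15 genes of recombination, synapsis and the first division, 11 genes of the prospore membrane and septins, 14 genes of the spore wall and of late sporulation, and 2 genes (SPO7 and SPO12) that act mainly in growing cells. The roles are coarse. SPO24, a prospore membrane gene, and SPS19, a peroxisomal enzyme gene, are counted with the spore wall and late genes, and SPO75 with the prospore membrane.

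Curcumin is a plant compound reported to inhibit histone acetyltransferases (HATs). The study also cites reports of its action on other targets, among them inhibition of histone deacetylases. CPTH2 is a synthetic inhibitor of the HAT Gcn5. The control strain, which carried the empty vector pL220, was grown for 1 h with 200 µM Curcumin, 400 µM CPTH2 or solvent alone. A further pair of strains expressed an intrabody, a single-chain antibody fragment made inside the cell: scFv-58F binds histone H3 acetylated at lysine 9, and scFv-645, an unrelated one, is directed against neuroligin-2, a protein of nerve cells. These 5 groups are called Curcumin, CPTH2, scFv-58F, scFv-645 and DMSO, and each had 3 libraries. All groups were grown in SD-L medium with 0.4% DMSO, and all share the L40 genotype (mat-a, with mutant alleles of the HIS, TRP1, LEU2 and ADE2 marker genes, a HIS3 reporter at LYS2, a lacZ reporter at URA3, both under lexAop sites, and Gal4 as labelled). The intrabody strains differ from the control in their plasmid, and although the study describes the libraries of a group as biological replicates, the labels do not say what was grown separately, so that p-values measure the spread between these libraries. Totals ran from 9062694 to 18878167 counts per library, and a detection floor of 3 counts equalled 0.159 to 0.331 CPM (counts scaled to 1e+06 per library), which covers counting error only. This floor was scaled by total counts alone, whereas the CPM of genes given below are also normalized between libraries (TMM). The Curcumin libraries lay further from each other than those of other groups, with a mean distance of 63.2 between them on the log2 scale over all genes, against 16.6 to 26 within the other groups.

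Meiosis in yeast is a program for starved diploid cells that carry both mating types. The transcription factor Ime1, with its DNA-binding partner Ume6, switches on early genes for recombination and chromosome pairing, and Ndt80 then switches on middle genes for the divisions and the spore membrane, after which late genes build the spore wall. In haploid cells growing in rich nutrients this program is off, in part because Rme1 represses IME1 and because Ume6 recruits a histone deacetylase to early promoters.

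Ume6 binds the URS1 element, whose core was searched as GGCGGC, and Ndt80 binds the middle sporulation element (MSE), searched as CACAAAA. Both cores were looked for on both strands in the 250 bases before and the 50 bases after each start codon, in the RefSeq sequence of build R64. The URS1 core was found in 14 of the 48 members (29.2%), against 5.15% of 5985 windows over all genes. It was present in 11 of the 15 recombination, synapsis and first-division genes and in 0 of the 11 prospore membrane and septin genes. The MSE core was found in 16 members (33.3%), against 7.75% of all windows, and these included 9 of the 14 spore wall and late genes, 5 of the 11 prospore membrane and septin genes and 0 of the 15 recombination genes. SPS18 and SPS19, which lie 300 bases apart on opposite strands, hold the same MSE core between them, and it is counted for both. A match is a description of the letters and not a shown binding site.

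Shown first are the windows of the pair of members with the highest fold change in Curcumin, each with the MSE core in capitals. That of SPO19 spans chrXVI:304137-304436 (plus strand), and its core starts 162 bases before the start codon. That of SPS1 spans chrIV:1486989-1487288 (minus strand), where the core starts 6 bases before the start codon and its last base is the A of the ATG.
SPO19: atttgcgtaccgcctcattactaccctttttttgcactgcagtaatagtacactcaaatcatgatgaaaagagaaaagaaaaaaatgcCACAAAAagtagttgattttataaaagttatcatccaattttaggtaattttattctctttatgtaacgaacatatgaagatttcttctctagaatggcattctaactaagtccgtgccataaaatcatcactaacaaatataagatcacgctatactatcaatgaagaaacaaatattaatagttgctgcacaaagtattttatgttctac
SPS1: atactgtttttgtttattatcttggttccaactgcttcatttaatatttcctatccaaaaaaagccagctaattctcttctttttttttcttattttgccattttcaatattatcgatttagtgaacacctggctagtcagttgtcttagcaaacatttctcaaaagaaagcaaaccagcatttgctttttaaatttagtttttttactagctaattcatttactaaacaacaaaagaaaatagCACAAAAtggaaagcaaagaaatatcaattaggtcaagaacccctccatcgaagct

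Next come 3 windows of early genes that share the URS1 core, in capitals, while their levels in Curcumin went in different directions, being higher for SPO13 and MEI4 and lower for SPO16. They span chrVIII:131797-132096 (plus strand), chrV:239725-240024 (minus strand) and chrVIII:402633-402932 (minus strand), and the core starts 95, 96 and 88 bases before the start codon of SPO13, MEI4 and SPO16. In SPO13 the capitals GCCGCC are the same core read on the opposite strand.
SPO13: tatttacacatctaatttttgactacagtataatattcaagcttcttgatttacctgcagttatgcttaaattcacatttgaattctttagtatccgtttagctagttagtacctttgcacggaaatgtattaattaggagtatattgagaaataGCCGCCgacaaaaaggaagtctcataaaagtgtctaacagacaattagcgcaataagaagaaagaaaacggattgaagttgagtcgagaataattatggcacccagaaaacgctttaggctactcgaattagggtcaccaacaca
MEI4: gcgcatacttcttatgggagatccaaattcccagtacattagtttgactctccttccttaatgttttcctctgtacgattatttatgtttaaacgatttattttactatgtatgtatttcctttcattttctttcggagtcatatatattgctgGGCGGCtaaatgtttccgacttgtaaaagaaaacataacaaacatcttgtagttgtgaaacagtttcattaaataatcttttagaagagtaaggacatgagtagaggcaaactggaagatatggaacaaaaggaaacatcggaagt
SPO16: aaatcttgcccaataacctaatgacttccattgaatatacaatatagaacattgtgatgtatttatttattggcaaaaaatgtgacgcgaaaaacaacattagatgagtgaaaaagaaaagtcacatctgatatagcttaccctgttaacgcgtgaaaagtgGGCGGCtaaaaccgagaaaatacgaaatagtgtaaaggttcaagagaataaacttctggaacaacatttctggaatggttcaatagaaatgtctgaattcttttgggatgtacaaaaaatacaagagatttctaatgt

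SPO11, which encodes the enzyme that cuts DNA to start meiotic recombination, had neither core in its window at chrVIII:64108-64407 (minus strand). It is printed because SPO11 was among the members with the highest fold change in Curcumin.
SPO11: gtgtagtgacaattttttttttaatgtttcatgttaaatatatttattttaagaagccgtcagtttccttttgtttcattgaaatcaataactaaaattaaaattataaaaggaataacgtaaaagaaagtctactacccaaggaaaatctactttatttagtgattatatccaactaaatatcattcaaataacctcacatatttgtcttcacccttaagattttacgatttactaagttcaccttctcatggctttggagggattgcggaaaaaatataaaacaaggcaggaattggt

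Most members were weakly expressed in DMSO. Per kilobase of gene, their levels had a median of 7.44 CPM, against 38.6 CPM per kb over the 6588 tested genes, and 42 of the 48 lay below that median. SPO24, which encodes a small protein of the prospore membrane, was an exception at 9383 ± 492 CPM per kb (SD, n = 3). SPO12, a gene of mitotic exit, followed at 89.3 ± 15.2 CPM per kb, SPO73 at 69.4 ± 5.49 and SPR6 at 60.1 ± 0.865 CPM per kb. The libraries of these 4 members did not overlap, but the gap between SPO12 and SPO73 was smaller than their SDs together, and REC107 (40.1 ± 2.96 CPM per kb) and IME4 (40 ± 1.03 CPM per kb), next in order, were not separated. Counting ignored strand, so the level of IME4 can include antisense reads. At the low end, MEI5 and SPS1 (both 1.32 CPM per kb), HOP2 (1.27 ± 0.468) and SPR2 (1.04 ± 0.249 CPM per kb) did not separate from each other. SPO19 was lowest at 0.491 ± 0.114 CPM per kb, with its libraries below those of SPR2.

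**Figure D1:**
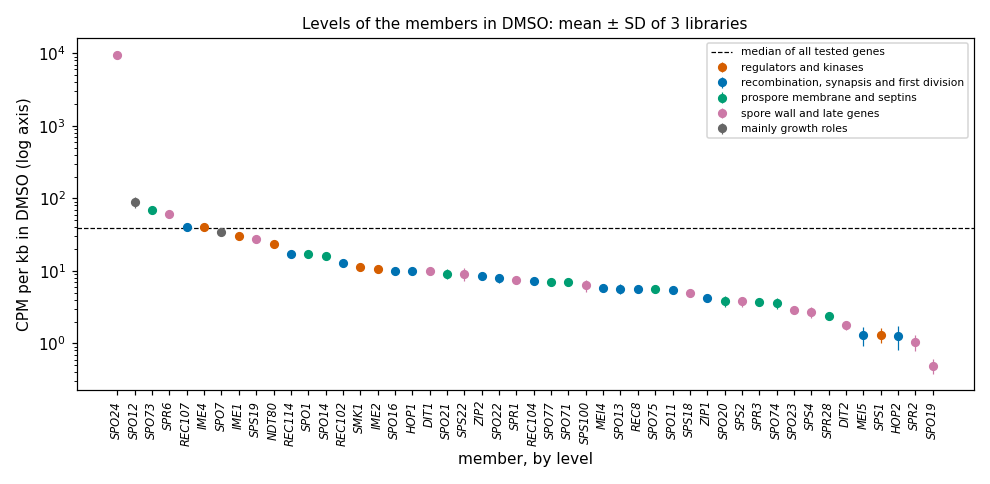
Level of each of the 48 members in DMSO, in CPM per kb of gene on a log axis, ordered from highest to lowest (points are means and bars SDs of 3 libraries, colours are roles). SPO24 stands alone at 9383 CPM per kb, 42 members lie below the dashed median of all tested genes (38.6 CPM per kb), and SPO19 is lowest at 0.491 CPM per kb.

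All 48 members passed the filter on low counts (10 or more in 3 or more libraries) and were tested, but SPO19 met this only through the Curcumin libraries. Summed over the members other than SPO24, the Curcumin libraries held 1138 to 1712 CPM, the CPTH2 libraries 853 to 909, the scFv-58F libraries 805 to 836 and the scFv-645 libraries 779 to 811 CPM, against 789 to 804 CPM in DMSO. With SPO24, the sums were 2366 to 3666 CPM in Curcumin and 2277 to 2459 CPM in CPTH2. They were 2589 to 2997 CPM in scFv-58F, 2667 to 2779 CPM in scFv-645 and 2617 to 2809 CPM in DMSO. CPTH2 thus lay above DMSO without SPO24 and below it with SPO24, and Curcumin overlapped DMSO with SPO24. Both Curcumin sums include SPO19, which was used to choose the set. In a bulk sample, a change in the number of cells that express a gene and a change in RNA per cell cannot be told apart.

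A gene counted as differentially expressed (DEG) where its fold change was 1.5 or more and its p-value in the quasi-likelihood test of edgeR, adjusted by Benjamini-Hochberg over all tested genes, was below 0.05. In Curcumin versus DMSO, 31 of the 48 members met this rule, 25 higher and 6 lower, where 52.6% of all genes did (27.9% higher and 24.7% lower). The count is a description and includes SPO19, which was used to choose the set. The median log2 fold change of the members was 0.75, against 0.03 over all genes. Of the 14 spore wall and late genes, 10 were higher and 3 lower, with a median log2 fold change of 1.64. Of the 15 genes of recombination, synapsis and the first division, 8 were higher and 1 was lower (median 1.25), and of the 11 prospore membrane and septin genes 6 were higher and 1 was lower (median 0.62). Of the regulators and kinases, SPS1 alone met the rule.

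**Figure D2:**
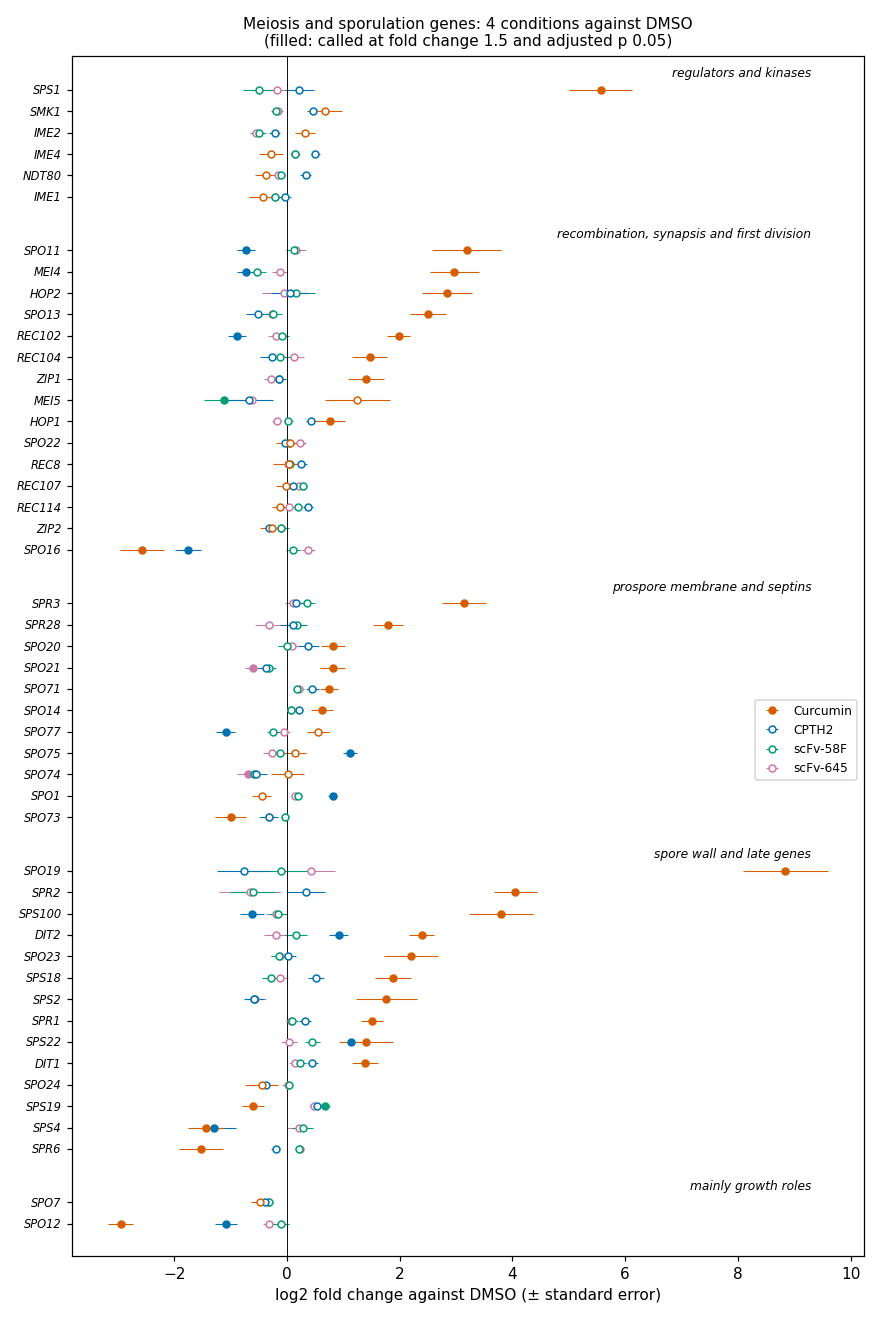
Log2 fold change against DMSO (horizontal axis, points with standard errors) of the 48 members, grouped by role, in Curcumin, CPTH2, scFv-58F and scFv-645 (filled points met the DEG rule). The Curcumin points reach from -2.95 for SPO12 to 8.84 for SPO19, whereas those of CPTH2 stay between -1.76 and 1.14 and those of both intrabody strains between -1.11 and 0.68.

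The largest value belonged to SPO19, which encodes a protein of the prospore membrane and spore wall. SPO19 had 164, 247 and 55.5 CPM in the Curcumin libraries, from 2395, 2892 and 776 counts. In the DMSO libraries it had 0.404, 0.333 and 0.252 CPM, from 4, 6 and 3 counts, and the other 9 libraries held 2 to 6 counts each. The groups were separated by more than 2 orders of magnitude, and DMSO was at or near the floor of 3 counts. The log2 fold change was 8.84 ± 0.75 (standard error, SE), ranking 1 among the 6588 tested genes, and it rests on a DMSO level known only to a few counts. SPO19 lies at XVI:304387-305058 on the plus strand and overlaps no other gene. Its neighbours on both sides, transcribed in the same direction, were lower in Curcumin: RPL5, a ribosomal protein gene 372 bases upstream, had a log2 fold change of -1.66, and TAF14, a transcription factor subunit gene 239 bases downstream, one of -0.65.

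SPS1, a protein kinase gene required for spore formation, was next. Its levels were 39.2, 99.8 and 142 CPM in Curcumin, against 1.52, 1.89 and 2.43 CPM in DMSO. The lowest Curcumin library was thus above the highest DMSO library by more than 10-fold, and the log2 fold change was 5.57 ± 0.56 (SE), ranking 12 among all genes. SPS1 stands beside SPS2, another member (log2 fold change 1.76), 262 bases away on the same strand. The 5 other regulators did not meet the rule in Curcumin. IME1, the master regulator of entry into meiosis, had 33.7, 23.7 and 17.2 CPM in Curcumin, against 29.9, 36.2 and 32.5 CPM in DMSO (log2 fold change -0.42 ± 0.25, SE). NDT80 had 40.2, 36.5 and 25.9 CPM in Curcumin, against 41.6, 43.4 and 46.9 CPM in DMSO (-0.38 ± 0.19). The ranges of IME1 overlapped, and those of NDT80 did not. IME2, the kinase acting with Ime1, had a log2 fold change of 0.32 ± 0.17, SMK1, a kinase of spore wall assembly, 0.68 ± 0.30, and IME4, an RNA methyltransferase gene, -0.28 ± 0.21. When libraries were scaled by their total counts alone, the Curcumin median over all genes moved to 0.38 in place of 0.03 and 70.6% of all DEGs were higher in place of 53%. Under that scaling IME4 turned to 0.08, while NDT80 was at -0.02 and IME1 at -0.07.

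Of the spore wall and late genes, a further 4 were at least 4-fold higher in Curcumin. SPR2, a putative spore wall gene, had 8.16, 12.1 and 16.4 CPM in Curcumin, against 0.909, 0.556 and 0.755 CPM in DMSO (log2 fold change 4.05 ± 0.38). SPS100, which protects the maturing spore wall, had 34.6, 73.5 and 156 CPM, against 5.15, 6.11 and 7.46 CPM in DMSO (3.80 ± 0.57). DIT2, a cytochrome P450 that makes the dityrosine of the outer spore wall, had 12.5, 16.1 and 13.5 CPM, against 2.22, 2.72 and 2.94 CPM in DMSO (2.39 ± 0.22). For these 3 genes every Curcumin library exceeded every DMSO library. SPO23, whose product associates with Spo1, had 9.81, 16.8 and 36.7 CPM, against 4.55, 4.61 and 4.44 CPM in DMSO (2.20 ± 0.48). DIT1, the partner of DIT2 in dityrosine synthesis, reached a log2 fold change of 1.38 ± 0.23, and the other members called higher in this role were SPS18 (1.88), SPS2 (1.76), SPR1, a spore glucanase gene (1.51), and SPS22 (1.40). SPS2 and SPS22 act in assembly of the glucan layer of the spore wall. DIT2 shares 37.6% of its length with a gene on the opposite strand and SPS18 22.5% with a gene on its own strand, and the counting ignored strand, so that reads in the overlaps cannot be told apart.

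Among the genes of recombination, synapsis and the first division, 4 were at least 4-fold higher. SPO11 had 18.3, 57 and 106 CPM in Curcumin, against 7.27, 5.89 and 6.71 CPM in DMSO (log2 fold change 3.19 ± 0.61). MEI4, whose product acts with Spo11 to form DNA breaks, had 26, 61 and 85.5 CPM, against 7.88, 7.5 and 6.37 CPM in DMSO (2.97 ± 0.44). Both sets of libraries were far apart, although the Curcumin values themselves spread 5.81-fold for SPO11 and 3.29-fold for MEI4. HOP2, required for pairing of the right partners, had 3.36, 7.6 and 7.15 CPM, against 1.11, 0.889 and 0.503 CPM in DMSO (2.84 ± 0.45). SPO13, which keeps sister chromatids together in the first division, had 17.1, 33.4 and 35.6 CPM, against 5.86, 4.56 and 4.61 CPM in DMSO (2.51 ± 0.32). The other genes called higher in this role were REC102 (1.98) and REC104 (1.47), further genes of break formation, and ZIP1 (1.40) and HOP1 (0.76), structural genes of the synaptonemal complex and its axis. REC102 was the member just below the 4-fold line and SPO23 the one just above it. The other 5 genes of this role with neither call (REC8, REC107, REC114, SPO22 and ZIP2) had log2 fold changes of -0.27 to 0.06, and MEI5 one of 1.25 ± 0.57. IME4 and ZIP2 are known to have opposing transcripts in haploid cells, and sense and antisense reads cannot be told apart in these counts.

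In the prospore membrane and septin group, SPR3, a sporulation septin gene, had 25.2, 64.9 and 65.1 CPM in Curcumin, against 5.76, 5.67 and 6.04 CPM in DMSO (log2 fold change 3.14 ± 0.39). SPR28, another sporulation septin gene, followed at 1.79. The remaining genes called higher were SPO20, a SNARE of membrane fusion (0.82), SPO21, a component of the meiotic spindle pole plaque (0.81), SPO71 (0.74) and SPO14, a phospholipase D gene (0.62). SPO73, which acts with SPO71 in membrane shaping, was lower, with 12.5, 11.2 and 21.7 CPM in Curcumin, against 29.8, 27.7 and 32.5 CPM in DMSO. The other 4 genes of this role (SPO1, SPO74, SPO75 and SPO77) did not meet the rule, with log2 fold changes of -0.45 to 0.55, and neither did SPO24 (-0.45) nor SPO7, a gene of nuclear membrane growth (-0.48).

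**Figure D3:**
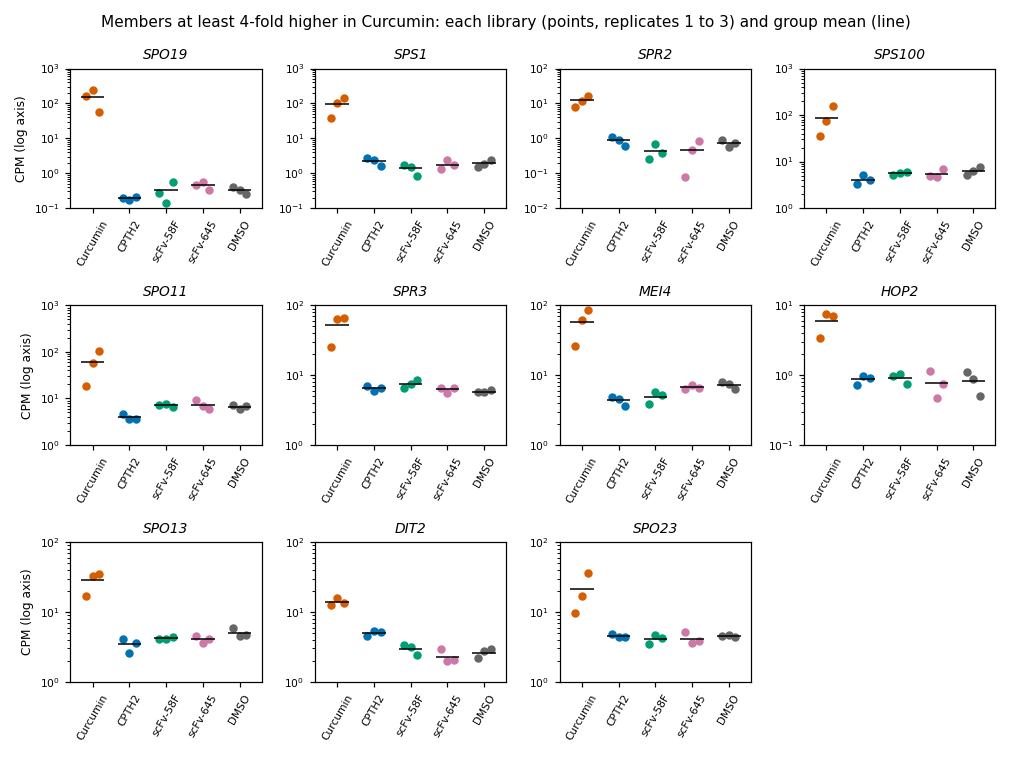
Level of the 11 members at least 4-fold higher in Curcumin in each of the 15 libraries, in CPM on a log axis (points are replicates 1 to 3 of Curcumin, CPTH2, scFv-58F, scFv-645 and DMSO, lines are group means). In each panel the 3 Curcumin libraries lie above all others. SPO19 has its lowest Curcumin value in replicate 3, whereas the lowest Curcumin value of the other 10 genes is in replicate 1.

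These 11 members compare with 456 genes (6.92% of all tested genes) that were at least 4-fold higher in Curcumin. Of the 20 genes that flank them and are no members, 0 reached 4-fold, and their log2 fold changes ran from -1.94 to 1.84 with a median of -0.28. Among members with a URS1 core, 7 of 14 were called higher (median log2 fold change 1.00), against 18 of 34 without it (median 0.68). Among members with an MSE core, 9 of 16 were called higher (median 1.10), against 16 of 32 without it (median 0.71).

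The 6 members called lower in Curcumin included SPO12 and SPO16, which are neighbours on chromosome VIII. They point toward each other with 130 bases between their ends. SPO12 had 7.47, 5.98 and 4.79 CPM in Curcumin, against 55.6, 40.3 and 43.9 CPM in DMSO (log2 fold change -2.95 ± 0.22). SPO16, a gene of synapsis initiation, had 0.686, 0.683 and 1.64 CPM, against 5.86, 6.39 and 5.79 CPM in DMSO (-2.58 ± 0.39). The other 4 were SPR6, of unknown function (-1.53), SPS4 (-1.43), SPO73 and SPS19, a peroxisomal enzyme of fatty acid breakdown (-0.60). SPS19 shares 53.8% of its length with a gene on the opposite strand. With libraries scaled by their total counts alone, SPS19 was at -0.25, under the cutoff, and 33 members met the rule, 29 higher and 4 lower.

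The 3 Curcumin libraries did not show the same strength of change. Of the 25 members called higher, 18 (72%) had their highest Curcumin value in replicate 3 and 21 (84%) their lowest in replicate 1, whereas over all genes called higher these shares were 58.1% and 69.7%. SPO19 differed, with its highest value in replicate 2 and its lowest in replicate 3. Without Curcumin replicate 3, the log2 fold change fell to 2.51 for SPO11, 3.10 for SPS100, 1.54 for SPO23, 0.98 for SPS2 and 0.65 for SPS22, a shift of more than 1.5-fold for each of these 5 genes. That of SPO19 was 9.25 without replicate 3 and 8.33 without replicate 2.

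**Figure D4:**
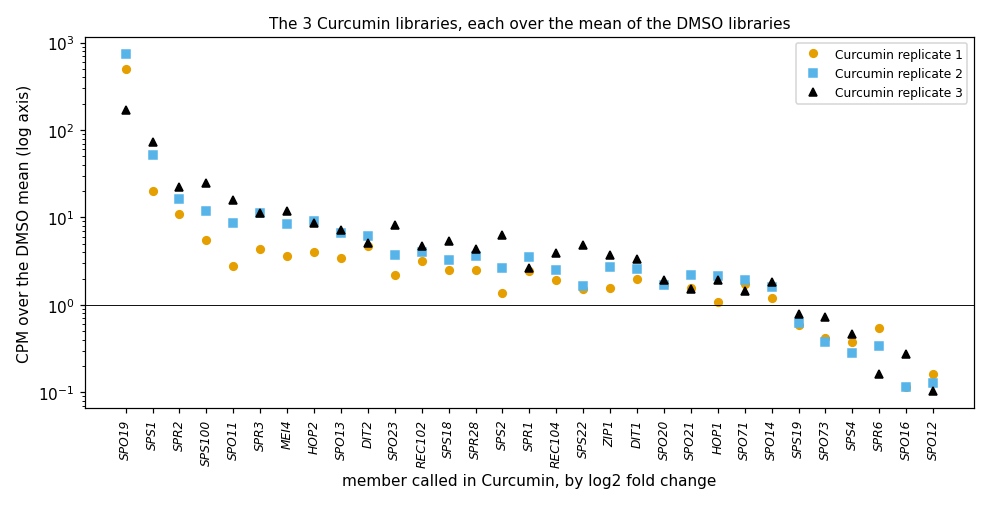
CPM of each Curcumin library over the mean of the DMSO libraries (log axis) for the 31 members that met the DEG rule in Curcumin, ordered by log2 fold change. Replicate 3 (triangles) is highest for 18 of the 25 genes called higher and replicate 1 (circles) lowest for 21, and SPO19 at the left has replicate 3 lowest.

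In CPTH2 versus DMSO, 12 of the 48 members (25%) were DEGs, 4 higher and 8 lower, where 31% of all genes were called (14.1% higher and 16.9% lower). The share was thus below that of all genes, and the median log2 fold change of the members was -0.00, against -0.03 over all genes. Of the 4 that rose, 2 were among the 14 spore wall and late genes and 2 among the 11 prospore membrane and septin genes. With 2 and 1 genes called lower, 28.6% and 27.3% of these roles were called, against 31% of all genes. SPS22 had 32.4, 28.3 and 22.3 CPM in CPTH2, against 10.4, 11.9 and 15.4 CPM in DMSO (log2 fold change 1.14 ± 0.17, edgeR adjusted p = 0.000396). SPO75, required for spore wall formation, had 28, 37.1 and 29.3 CPM, against 15.5, 13.4 and 14.7 CPM in DMSO (1.12 ± 0.13, adjusted p = 9.28e-05). SPO1, a gene of the meiotic spindle pole and prospore membrane similar to phospholipase B, had 59, 59.6 and 51.5 CPM, against 33.6, 32.5 and 31.3 CPM in DMSO (0.81 ± 0.08, adjusted p = 6.76e-05). In these genes the CPTH2 and DMSO libraries did not overlap, and the same held for DIT2, with 4.52, 5.35 and 5.25 CPM in CPTH2, against 2.22, 2.72 and 2.94 CPM in DMSO (0.92 ± 0.17, adjusted p = 0.00146).

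Of the 8 members that fell in CPTH2, 4 belong to recombination, synapsis and the first division. That is 26.7% of the 15 genes of this role, where 31% of all genes were called and 16.9% called lower. SPO16 had 2.42, 1.23 and 1.51 CPM in CPTH2, against 5.86, 6.39 and 5.79 CPM in DMSO (log2 fold change -1.76 ± 0.23, edgeR adjusted p = 0.000185). Its neighbour SPO12 had 27.9, 15.4 and 22.3 CPM, against 55.6, 40.3 and 43.9 CPM in DMSO (-1.08 ± 0.20, adjusted p = 0.00128). SPO16 and SPO12 thus had CPTH2 values below all DMSO values, as in Curcumin, a comparison that shares the DMSO libraries. REC102 had 6.62, 5.02 and 4.84 CPM in CPTH2, against 9.19, 10 and 11.7 CPM in DMSO (-0.89 ± 0.16, adjusted p = 0.0011). MEI4 had 4.85, 4.52 and 3.63 CPM, against 7.88, 7.5 and 6.37 CPM in DMSO (-0.72 ± 0.16, adjusted p = 0.00321). SPO11 had 4.52, 3.62 and 3.63 CPM, against 7.27, 5.89 and 6.71 CPM in DMSO (-0.72 ± 0.16, adjusted p = 0.00343). In the model of all 5 groups, the calls of MEI4 (-0.73, adjusted p = 0.108) and SPO11 (-0.74, adjusted p = 0.232) were lost. These 3 genes of DNA break formation were lower in CPTH2, while their log2 fold changes in Curcumin, 1.98, 2.97 and 3.19 for REC102, MEI4 and SPO11, were positive. The other REC members were not called in CPTH2, with REC104 at -0.26, REC107 at 0.11, REC8 at 0.25 and REC114 at 0.38. In Curcumin REC104 was at 1.47, and REC107 (-0.01), REC8 (0.03) and REC114 (-0.13) did not meet the rule.

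SPO77, which acts in prospore membrane closure, had 5.9, 4.2 and 4.03 CPM in CPTH2, against 10.6, 9.39 and 10.7 CPM in DMSO (log2 fold change -1.09 ± 0.16, edgeR adjusted p = 0.000421). SPS4 had 1.9, 0.74 and 0.504 CPM, against 2.73, 3.28 and 2.26 CPM in DMSO (-1.30 ± 0.39, adjusted p = 0.015). SPS100 had 3.21, 5.18 and 3.93 CPM, against 5.15, 6.11 and 7.46 CPM in DMSO (-0.62 ± 0.21, adjusted p = 0.0272). The ranges of SPS100 touched, since CPTH2 replicate 2 was above DMSO replicate 1. Its call was lost without CPTH2 replicate 1 (adjusted p = 0.104), CPTH2 replicate 3 (0.0668), DMSO replicate 2 (0.0632) or DMSO replicate 3 (0.107), and that of SPS4 without DMSO replicate 2 (0.0644). The call of SPS100 was also lost in the model of all 5 groups (-0.61, adjusted p = 0.295). The log2 fold change of SPS4 was -2.11 without CPTH2 replicate 1. SPO19 stayed at 2 to 3 counts in the CPTH2 libraries.

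**Figure D5:**
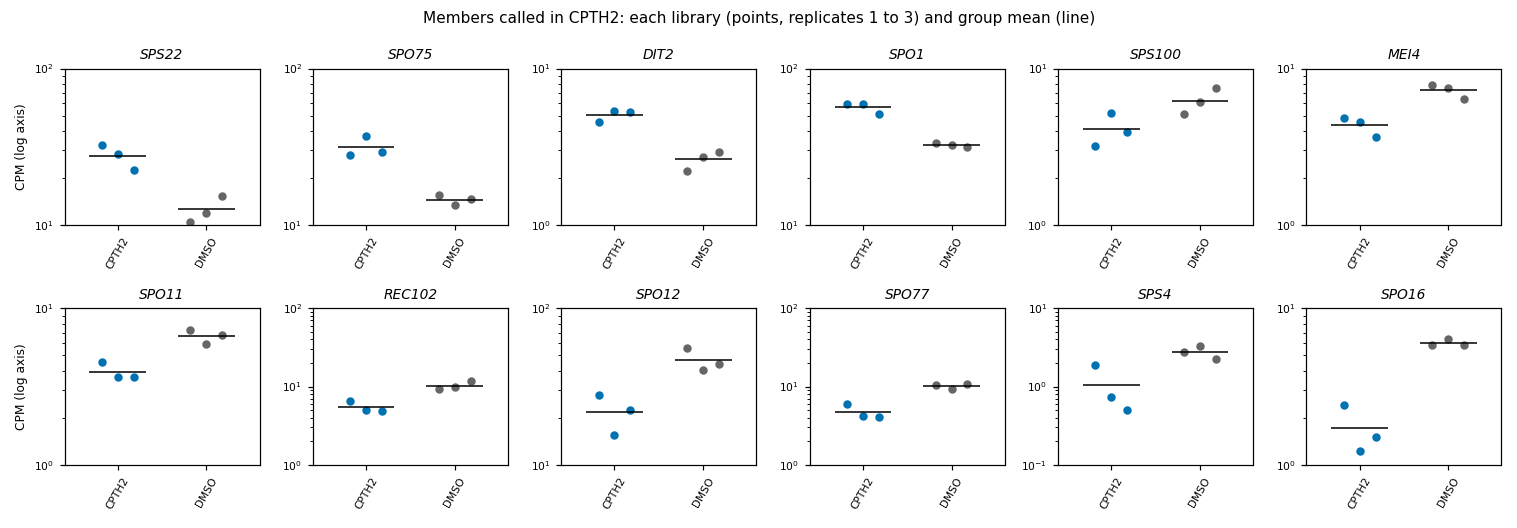
Level of the 12 members called in CPTH2 versus DMSO, in CPM on a log axis, ordered by log2 fold change (points are replicates 1 to 3, lines are group means, CPTH2 left of DMSO). In each panel but that of SPS100 the 3 CPTH2 libraries lie on one side of the 3 DMSO libraries.

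On the adjusted p alone, 30 of the 48 members passed in CPTH2, where 64% of all genes did. All 6 regulators stayed under the fold-change cutoff. An unadjusted p below 0.05 was held by 4 of them and by at least 64% of all genes, since all that passed the adjusted p had one. IME4 (log2 fold change 0.50 ± 0.08, edgeR adjusted p = 0.000547), SMK1 (0.46 ± 0.11, adjusted p = 0.00486) and NDT80 (0.33 ± 0.10, adjusted p = 0.0213) passed the adjusted p. IME1 (-0.03 ± 0.11, adjusted p = 0.841) and IME2 (-0.22 ± 0.10, adjusted p = 0.0699) did not. IME4 had 94.8, 111 and 100 CPM in CPTH2, against 72.5, 73.8 and 70.2 CPM in DMSO, without overlap. Sense and antisense reads at IME4 cannot be told apart here either.

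In scFv-58F versus DMSO, 3 of 48 members (6.25%) were DEGs, 1 higher and 2 lower, where 7.41% of all genes were called (1.97% higher and 5.43% lower). On the adjusted p alone, 14 members and 49% of all genes passed. SPS19 had 40.1, 39.4 and 37.8 CPM in scFv-58F, against 21.2, 24.5 and 27 CPM in DMSO (log2 fold change 0.68 ± 0.08, edgeR adjusted p = 7.28e-05), without overlap. It was the only one of the 3 that kept its call under every alternative run. All runs used the same counts, which ignored strand, and SPS19 shares 53.8% of its length with a gene on the opposite strand. Reads in this overlap cannot be told apart. SPS19 was also higher, under the cutoff, in scFv-645 (0.48 ± 0.09, adjusted p = 0.00405) and in CPTH2 (0.54 ± 0.11, adjusted p = 0.00195). These comparisons share the DMSO libraries. Between scFv-58F and scFv-645 it differed by 0.19 ± 0.07 (adjusted p = 0.0684). MEI5, a cofactor of the meiotic recombinase, had 0.438, 0.42 and 0.372 CPM, against 1.01, 1.06 and 0.587 CPM in DMSO (-1.11 ± 0.36, adjusted p = 0.0224). SPS2 had 2.98, 4.06 and 4.46 CPM, against 4.85, 5.78 and 6.54 CPM in DMSO (-0.59 ± 0.18, adjusted p = 0.0182). The libraries of both genes did not overlap, but both are at low counts. The call of MEI5 was lost without DMSO replicate 1 (adjusted p = 0.0526), DMSO replicate 2 (0.134), scFv-58F replicate 2 (0.0675) or scFv-58F replicate 3 (0.0634). That of SPS2 was lost without DMSO replicate 2 (0.0533), DMSO replicate 3 (0.0645) or scFv-58F replicate 1 (0.0543). Without DMSO replicate 2, SPS19 was the 1 member called. In scFv-645 versus DMSO, SPS2 was at -0.57 ± 0.19 (adjusted p = 0.0538) and MEI5 at -0.62 ± 0.35 (adjusted p = 0.221).

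In scFv-645 versus DMSO, 2 of 48 members (4.17%) were DEGs, both lower, where 4.02% of all genes were called (1.32% higher and 2.7% lower). On the adjusted p alone, 7 members and 22.9% of all genes passed. SPO21 had 11.5, 12 and 9.99 CPM in scFv-645, against 17.3, 19.1 and 13.9 CPM in DMSO (log2 fold change -0.61 ± 0.13, edgeR adjusted p = 0.0071). SPO74, a gene of the meiotic spindle pole plaque, had 3.08, 3.18 and 2.35 CPM, against 3.64, 4.95 and 5.03 CPM in DMSO (-0.69 ± 0.19, adjusted p = 0.025). Neither gene had overlapping libraries. SPO74 lost its call without DMSO replicate 2 (adjusted p = 0.103), DMSO replicate 3 (0.099), scFv-645 replicate 2 (0.0509) or scFv-645 replicate 3 (0.063). SPO21 fell under the fold-change cutoff without DMSO replicate 2 (-0.48) or scFv-645 replicate 3 (-0.53). In both of these cases neither gene was called and IME2 was the 1 member called. In scFv-58F versus DMSO, SPO74 was at -0.58 ± 0.19 (adjusted p = 0.0252) and SPO21 at -0.32 ± 0.12 (adjusted p = 0.0468), under the cutoff. Between scFv-58F and scFv-645, SPO74 differed by 0.10 ± 0.20 (adjusted p = 0.763) and SPO21 by 0.29 ± 0.11 (adjusted p = 0.0983).

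IME2 was lower in both intrabody strains, under the fold-change cutoff when all libraries were used. It had 17.8, 13.1 and 12.1 CPM in scFv-58F and 12.8, 13.5 and 15.5 CPM in scFv-645, against 22.5, 19.3 and 19.4 CPM in DMSO. The log2 fold changes were -0.50 ± 0.13 in scFv-58F (edgeR adjusted p = 0.00749) and -0.55 ± 0.10 in scFv-645 (adjusted p = 0.00367), and no library of either strain reached the DMSO values. IME2 met the DEG rule in scFv-58F without scFv-58F replicate 1 (-0.68, adjusted p = 0.000337), and in scFv-645 without DMSO replicate 2 (-0.59, adjusted p = 0.0124) or scFv-645 replicate 3 (-0.63, adjusted p = 0.00173). These comparisons share the DMSO libraries. The other regulators passed the adjusted p in neither strain, with log2 fold changes of -0.22 to 0.15, apart from SPS1 at -0.49 ± 0.29 in scFv-58F. SPO11 stood at 0.12 ± 0.13 in scFv-58F (adjusted p = 0.473) and 0.16 ± 0.17 in scFv-645 (adjusted p = 0.531).

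In scFv-58F versus scFv-645, 0 of 48 members were DEGs by edgeR and 0 by DESeq2, where 2.79% of all genes were called (0.668% higher and 2.13% lower), and 6 members had an unadjusted p below 0.05, as did 34.2% of all genes. SPS22 was the 1 member that passed the adjusted p, which 21.5% of all genes did, with 17.5, 16 and 18.6 CPM in scFv-58F, against 14.2, 12.8 and 12.1 CPM in scFv-645 (log2 fold change 0.40 ± 0.11, edgeR adjusted p = 0.0217). The log2 fold changes of the 48 members lay between -0.55 for SPO19, which was at 2 to 6 counts in both strains, and 0.48 for SPR28. For IME2 the difference between the strains was 0.04 ± 0.15 (adjusted p = 0.885).

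A list of 51 other genes of meiosis and sporulation, outside the naming rule, was read in the same fits. In Curcumin, 21 were called higher and 5 lower (51%, against 52.6% of all genes), with a median log2 fold change of 0.72. The highest were CDA2, a chitin deacetylase gene of the spore wall (5.25, 13.9 CPM in Curcumin against 0.358 in DMSO), and CRR1, a spore wall glycoside hydrolase gene (4.03, 63.5 CPM against 3.86 in DMSO). SMA1 (3.82), MUM3 (3.81) and SSP1 (3.73), genes of prospore membrane and spore wall assembly, followed. RIM4, an RNA-binding regulator of meiosis, had 226 CPM in Curcumin against 27.5 CPM in DMSO (3.03), and RIM15, the kinase that links starvation to meiosis, 246 CPM against 38 CPM in DMSO (2.68). LDS1 (3.37), MAM1 (3.15) and SSP2 (2.69) were also called higher, as were MND1, the partner of HOP2, at 2.64 and UME6 at 1.32. Of the 5 called lower, RME1, the repressor of IME1 in haploid cells, had 40.2 CPM in Curcumin against 143 CPM in DMSO (-1.85). The others were the meiosis and sporulation genes MSH4 (-1.73), SGO1 (-1.27), OSW2 (-1.15) and GMC1 (-0.72).

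In CPTH2, 8 of the 51 rose and 5 fell (25.5%, against 31% of all genes). LDS1 (log2 fold change 1.76 ± 0.27, edgeR adjusted p = 0.000469) and LDS2 (1.24 ± 0.10, adjusted p = 2.35e-05), genes of lipid droplets in the spore wall, rose, as did NDJ1, a telomere gene of meiosis (1.39 ± 0.15, adjusted p = 8.36e-05). The 5 that fell included SGO1, the protector of centromeric cohesion (-1.15 ± 0.13, adjusted p = 9.96e-05), and PCH2, a checkpoint gene (-1.08 ± 0.11, adjusted p = 5e-05). In scFv-58F, 2 rose and 1 fell (5.88%, against 7.41% of all genes), and in scFv-645, 1 rose and 2 fell (5.88%, against 4.02% of all genes). SAE2, a gene of break processing, rose in both strains, by 0.70 ± 0.11 in scFv-58F (adjusted p = 0.000345) and 0.94 ± 0.11 in scFv-645 (adjusted p = 0.000339), comparisons that share the DMSO libraries. In scFv-58F versus scFv-645, 0 of the 51 were DEGs by edgeR, where 2.79% of all genes were, and 1 was by DESeq2. An unadjusted p below 0.05 in edgeR was held by 14 of the 51 and by 34.2% of all genes.

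Mating-type genes were read as a check of the labelled strain. The 5 genes specific to MATa cells were all detected, with summed levels of 313 to 948 CPM in Curcumin, 252 to 275 CPM in CPTH2, 285 to 293 CPM in scFv-58F and 281 to 333 CPM in scFv-645, against 317 to 370 CPM in DMSO. Their members differed in Curcumin, where MFA1 averaged 372 CPM, against 57.9 CPM in DMSO, while MFA2 averaged 21.4 CPM, against 97.1 CPM in DMSO, and STE2 57.7 CPM, against 93 CPM in DMSO. The 5 haploid-specific genes summed to 232 to 270 CPM in Curcumin, 334 to 365 CPM in CPTH2, 453 to 460 CPM in scFv-58F and 416 to 418 CPM in scFv-645, against 410 to 441 CPM in DMSO. Both the Curcumin and the CPTH2 sums lay below those of DMSO without overlap. Of these 5, STE18 (20.5 CPM in Curcumin, against 77.3 in DMSO), GPA1 (53.6 against 92.9) and RME1 (40.2 against 143) had lower means in Curcumin, and STE5 (53.1 against 42) and FUS3 (85.7 against 72.7) had higher ones. The 4 genes specific to MATalpha cells summed to 72.4 to 80.9 CPM in Curcumin, 50.1 to 58.7 CPM in CPTH2 and 36.7 to 38.9 CPM across both intrabody strains, against 39.2 to 40.8 CPM in DMSO. Among these 4, MF(ALPHA)1, the alpha-factor gene, averaged 12.8 CPM in Curcumin and 0.886 CPM in DMSO, and none of the 14 genes was at 0 in any library. The part of these shifts in the levels of the members was not tested.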

How the data were processed

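RNA of 15 yeast samples was sequenced by the authors with a stranded mRNA kit. Reads were trimmed with cutadapt, mapped with segemehl to sacCer3 and counted with NGSutils 0.5.9, which per the file headers ignored strand and split reads that mapped to several positions. The deposited counts are whole reads per gene. The deposited CPM relate these counts to all mapped reads of a library, the deposited RPKM are CPM per kilobase, and both served only as checks. The filter of 10 counts in 3 of 15 libraries kept 6588 of 6692 genes, and each comparison was fitted on its own libraries with edgeR 4.0.16 (TMM, quasi-likelihood F-test) in R 4.3.3. The standard error is the size of the log2 fold change divided by the root of F. CPM printed here are TMM-normalized over all libraries. Alternatives were DESeq2 1.42.0, other scalings and filters, no fold-change cutoff, a model of 5 groups, a replicate block and the removal of each library. The fits were tested on simulated data. Members called in any comparison, the regulators and SPO11 were named with values. Members and lists were chosen with earlier results of these data known. RefSeq R64 gave names and sequence, and 47 of 48 members had the coordinates of the files (HOP2 differed).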

Additional observations from a re-analysis of the deposited data

How the results depend on the processing

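In CPTH2 versus DMSO, 12 members were called, 30 on the adjusted p alone, and 10 to 14 when each library was left out in turn. The model of all 5 groups left 9, with the calls of MEI4 (adjusted p = 0.108), SPO11 (0.232) and SPS100 (0.295) lost. In scFv-58F versus DMSO, 3 members were called, 14 on the adjusted p alone, 1 by DESeq2's Wald test, 5 with library size only and 1 in the model of all 5 groups, and 1 to 4 when each library was left out. In scFv-645 versus DMSO, 2 members were called, 7 on the adjusted p alone, 0 in the model of all 5 groups, and 1 to 3 when each library was left out. Between scFv-58F and scFv-645, 0 members were called and 1 on the adjusted p alone. In Curcumin versus DMSO, 31 members were called, 24 to 33 over the other settings and 23 to 34 when each library was left out, and at least 10 counts in every library removed SPO19 from the test. IME1 in CPTH2 turned to 0.06 without CPTH2 replicate 2 and to 0.05 without DMSO replicate 2, in place of -0.03 (from -0.09 to 0.06 over the left-out libraries), and SPO11 in scFv-645 to -0.05 without scFv-645 replicate 1, in place of 0.16 (from -0.05 to 0.29). Of the log2 fold changes followed, 209 of 219 values in CPTH2, 102 of 116 in scFv-58F and 93 of 104 in scFv-645 kept their direction and call. Where no cause is given above, the cause was not tested.

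Labels number the replicates 1 to 3 in each group without saying what equal numbers share. The deviations of each library from its group mean were compared over all tested genes. Between same-numbered libraries these deviations correlated at -0.385 to 0.145 across the comparisons, and the numbers were not taken to pair the libraries. These values concern differences within a group and not whole expression profiles. With the replicate number as a block, 29 members were called in Curcumin, 12 in CPTH2, 2 in scFv-58F (SPS2 at -0.57 fell under the cutoff), 2 in scFv-645 and 0 between the intrabody strains. For low members such as SPO19, SPR2, MEI5 and HOP2, depth limited the precision, since 3 counts equal up to 0.331 CPM when scaled by total counts alone.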
